A study of Mus musculus with 2 samples.

Results

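The genes described here encode the signalling parts that stand behind the antigen receptor of T cells and behind related receptors of the innate immune system: the CD3 chains Cd3d, Cd3e, Cd3g and Cd247, the T cell receptor (TCR) gamma gene segments Tcrg-V1 and Tcrg-V4, and the transmembrane adaptors Fcer1g, Tyrobp and Hcst. They were chosen by exact match of the gene symbol in the deposited table, which gave 9 genes with 14 probe sets, out of 20663 genes and 45101 probe sets on the array. RNA came from intraepithelial lymphocytes (IEL), the T cells between the epithelial cells of the gut, taken from the small intestine of RAG-knockout mice on the C57BL/6 background 8 weeks after they received naive CD4 T cells. Both populations came from such recipients, in which transferred CD4 cells cause colitis and which cannot make T or B cells. The CD4CD8aa IEL carried CD4 together with CD8 alpha, and the CD4 IEL carried CD4 without CD8 alpha. Each population was measured on 1 single-colour array, so that no comparison has replicates or a test, and the sources used here give neither the age of the mice nor the number pooled.

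Receptors for antigen have no signalling tail of their own. They depend on partner chains whose tails carry immunoreceptor tyrosine-based activation motifs (ITAMs), which the kinase Lck phosphorylates and to which Zap70 or Syk then binds. The CD3 gamma, delta and epsilon chains and the zeta chain made from Cd247 do this for the TCR. Fcer1g (the Fc receptor gamma chain) and Tyrobp (DAP12) do it for Fc receptors and many receptors of NK and myeloid cells, while Hcst (DAP10) lacks an ITAM, recruits phosphoinositide 3-kinase and serves the NKG2D receptor made from Klrk1. TCR gamma chains belong to gamma delta T cells, which are abundant in the gut epithelium of normal mice. The RAG-knockout recipients used here cannot make such cells themselves.

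Each signal was divided by the median of its array, which was 81.1 in CD4CD8aa IEL and 82.5 in CD4 IEL. Differences are log2 values, CD4CD8aa IEL minus CD4 IEL. Signals below a floor of 0.4 times the median were raised to it before taking log2, and a gene was called detected if it exceeded the floor on 1 array or both. In place of a spread between replicates, the SD between probe sets of the same gene, called the same-gene SD below, was measured, which was 0.81 on the log2 scale under the array median, 0.41 from 16 to 64 times and 0.35 above 64 times. The sort markers fitted the labels: Cd8a had a signal of 291 in CD4CD8aa IEL and of 3.79 in CD4 IEL, and Cd4 had 86.4 in CD4CD8aa IEL and 72.6 in CD4 IEL. Cd8b1, the CD8 beta chain, had 1.29 in CD4CD8aa IEL and 0.514 in CD4 IEL.

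Cd3g, Cd3d and Cd3e follow each other in the RefSeq gene order on mouse chromosome 9, and they are shown first because these neighbours differed from one another in the comparison below. The sequences run 5′ to 3′ on the strand of the gene, from 250 bases before to 50 bases after the start, and come from RefSeq on GRCm38.p6. Capitals mark AGGAAG, a sequence that holds the core bound by ETS factors, read on either strand (CTTCCT on the other). The windows lie at chr9:45009562-45009861 (minus strand) for Cd3e, at chr9:44981536-44981835 (plus strand) for Cd3d and at chr9:44980382-44980681 (minus strand) for Cd3g.
Cd3e: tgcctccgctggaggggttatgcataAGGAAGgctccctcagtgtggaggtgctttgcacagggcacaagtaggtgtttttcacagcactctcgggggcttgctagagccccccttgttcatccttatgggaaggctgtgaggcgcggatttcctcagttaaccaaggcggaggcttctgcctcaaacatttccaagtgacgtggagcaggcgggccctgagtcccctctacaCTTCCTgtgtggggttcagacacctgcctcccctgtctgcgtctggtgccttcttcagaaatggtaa
Cd3d: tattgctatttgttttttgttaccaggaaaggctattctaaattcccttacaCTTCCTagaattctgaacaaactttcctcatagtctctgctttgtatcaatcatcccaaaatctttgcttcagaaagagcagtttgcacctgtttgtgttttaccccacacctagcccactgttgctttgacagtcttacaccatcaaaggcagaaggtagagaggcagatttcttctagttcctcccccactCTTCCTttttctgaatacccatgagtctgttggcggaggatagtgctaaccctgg
Cd3g: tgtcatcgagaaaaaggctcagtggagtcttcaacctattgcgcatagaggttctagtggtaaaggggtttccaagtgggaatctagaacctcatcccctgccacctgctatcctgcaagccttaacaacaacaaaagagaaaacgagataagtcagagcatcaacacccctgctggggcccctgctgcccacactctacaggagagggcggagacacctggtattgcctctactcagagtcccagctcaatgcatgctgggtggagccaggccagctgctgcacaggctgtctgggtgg
The Cd3e window held AGGAAG at bases 27 to 32 and, on the other strand, at bases 234 to 239. The Cd3d window held it on the other strand at bases 53 to 58 and at bases 246 to 251. The Cd3g window held none, and held AGATAA, a sequence of the kind GATA factors bind, at bases 147 to 152. Promoters were found for 6 of the 9 genes, and 5 of these 6 held AGGAAG on either strand, against 35.4% of 32851 windows of the same length. TGTGGT, the core bound by RUNX factors, was in 1 of the 6, that of Fcer1g, against 16.8% of all windows, AGATAA was in 11.2% of all windows, and TATAAA was in none of the 6 and in 13.6% of all windows. These letters are a description of the windows and no evidence of binding.

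The comparison asks how gut CD4 T cells with CD8 alpha differ from those without it. The clearest differences among the 9 genes were a higher signal of Tcrg-V1 and of Cd3e in CD4CD8aa IEL. Tcrg-V1 was 2.56-fold and Cd3e 2.01-fold higher, while Cd3d, Cd3g, Cd247, Tcrg-V4, Fcer1g, Tyrobp and Hcst lay within 2-fold. All 14 probe sets were above the floor on both arrays. At the brightest probe set of each gene, 2 of the 9 genes reached 2-fold upwards in CD4CD8aa IEL and 0 downwards, against 6.65% higher and 6.28% lower among the 17376 detected genes. The median difference of the 9 genes was -0.06, against 0.06 over all detected genes. Differences of this size were less common among bright genes. Of the 3487 genes at 16 times the array median or more on both arrays, a limit chosen after the values were seen, 1.15% were past 2-fold upwards and 0.774% downwards, and 7 of the 9 genes, including Tcrg-V1 and Cd3e, lay in that range. Of the 14 probe sets, 11 differed by less than 1 same-gene SD at their signal. Another 2, those of Tcrg-V1 and Cd3e, differed by more than 2 such SDs. Among all detected genes, counted by gene at the brightest probe set and at any signal, 5.94% differed by more than 2 such SDs.

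**Figure D1:**
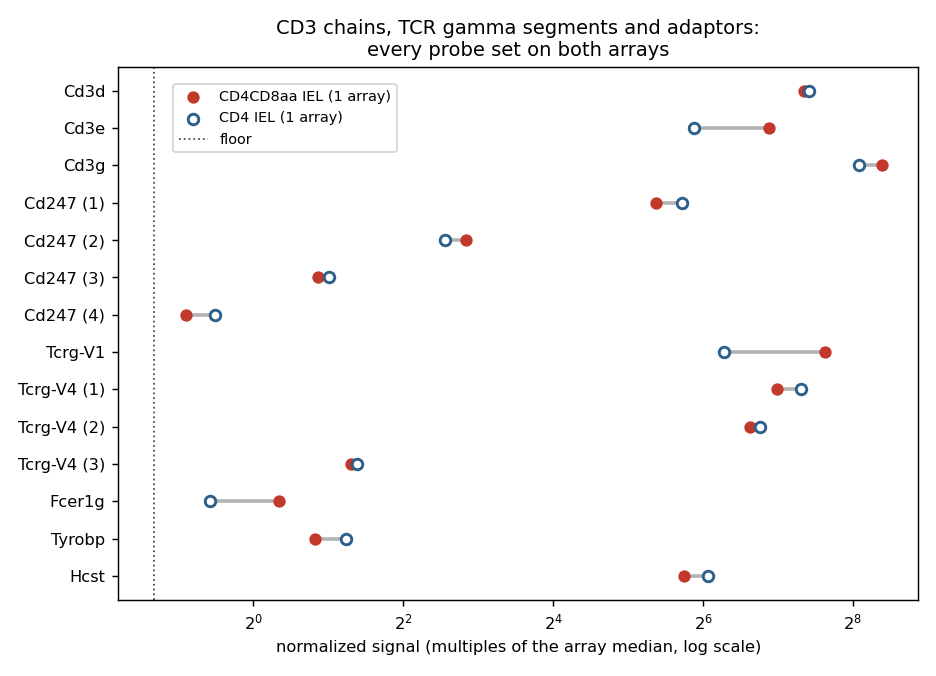
Normalized signal of every probe set of the 9 genes (multiples of the array median, log scale) on the CD4CD8aa IEL array (filled red) and the CD4 IEL array (open blue), numbered from the brightest where a gene has several; the dotted line is the floor of 0.4. The widest gaps among the bright probe sets are at Tcrg-V1 (198 against 77.5) and Cd3e (118 against 59.0).

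Cd3e encodes CD3 epsilon, which pairs with both the gamma and the delta chain and is needed for any TCR to reach the surface. Its 1 probe set had a signal of 118 in CD4CD8aa IEL and of 59.0 in CD4 IEL. As deposited before division by the median, these were intensities of 9593 in CD4CD8aa IEL and 4865 in CD4 IEL. The log2 difference of 1.004 was 2.83 times the same-gene SD (0.35 here), and it lay right at the 2-fold limit: 0.98 with the raw signals and 0.97 after centring the arrays on the median difference. With a single probe set, no second measurement of Cd3e could be set beside it.

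The other CD3 chains stayed within 2-fold, Cd3g with a smaller difference in the same direction as Cd3e. Cd3d, which encodes CD3 delta, had 163 in CD4CD8aa IEL and 170 in CD4 IEL, a log2 difference of -0.06. Cd3g, which encodes CD3 gamma, had 335 in CD4CD8aa IEL and 271 in CD4 IEL, a difference of 0.31, within the same-gene SD of 0.35. Cd3d and Cd3g were thus bright and close to level between the populations. The ratio of Cd3e to Cd3d, which does not depend on how the arrays were scaled, was 2.09 times higher in CD4CD8aa IEL, a log2 difference of differences of 1.06 where the same-gene SDs of both genes combine to 0.50. For Cd3e over Cd3g it was 1.62 times higher, or 0.70 on the log2 scale, with the same combined SD of 0.50.

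Cd247 encodes the zeta chain, which carries several ITAMs and on which surface expression of the complete receptor depends. It was the member with the most probe sets, 4, and they spanned a wide range of signal. The brightest had 41.6 in CD4CD8aa IEL and 52.6 in CD4 IEL, a log2 difference of -0.34. The second had 7.16 in CD4CD8aa IEL and 5.89 in CD4 IEL, a difference of 0.28. The third had 1.83 in CD4CD8aa IEL and 2.01 in CD4 IEL, and the dimmest 0.538 in CD4CD8aa IEL and 0.698 in CD4 IEL, differences of -0.14 and -0.38. The probe sets of Cd247 therefore disagreed in sign, 1 above 0 and 3 below, and each difference was smaller than the same-gene SD at its signal. The ratio of Cd3e to the brightest Cd247 probe set was 2.54 times higher in CD4CD8aa IEL.

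**Figure D2:**
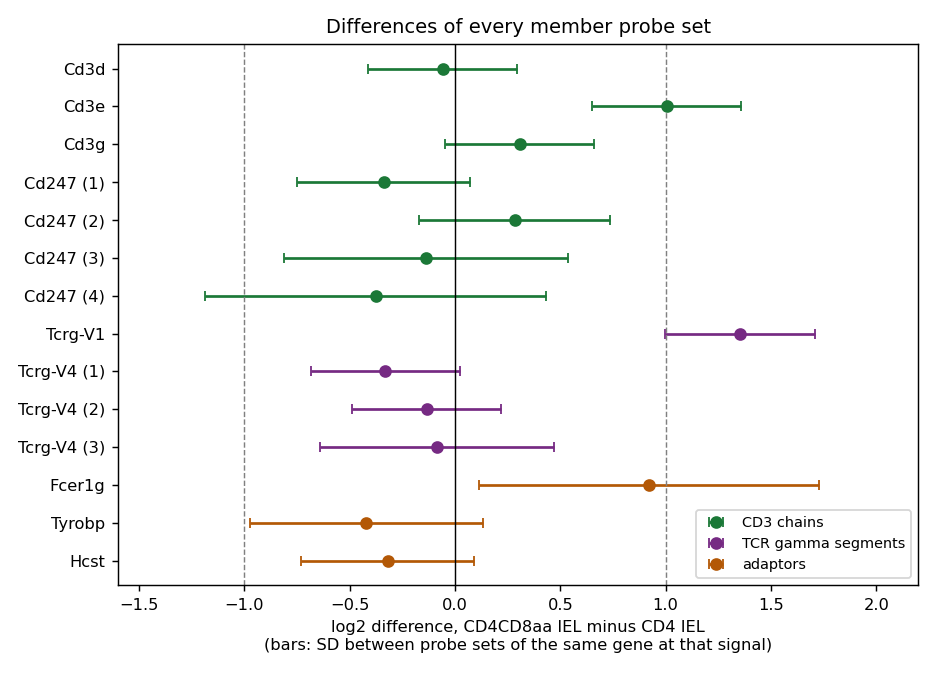
Log2 difference (CD4CD8aa IEL minus CD4 IEL) of every probe set of the 9 genes, with bars of 1 same-gene SD at the probe set's signal, and dashed lines at 2-fold. The differences run from -0.42 for Tyrobp to 1.35 for Tcrg-V1, and 12 of the 14 lie within 2-fold.

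The TCR gamma segments differed from each other. Tcrg-V1, a variable segment now named Trgv1, had a signal of 198 in CD4CD8aa IEL and of 77.5 in CD4 IEL at its 1 probe set, 2.56-fold higher and a log2 difference of 1.35, which is 3.82 times the same-gene SD at that signal. As deposited before division by the median, the intensities were 16058 in CD4CD8aa IEL and 6393 in CD4 IEL. Over the alternatives in which this probe set was used, the difference stayed between 1.32 and 1.38.

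Tcrg-V4, now named Trgv4, had 3 probe sets and none of them differed by as much as 1 same-gene SD. The brightest had 126 in CD4CD8aa IEL and 159 in CD4 IEL, a log2 difference of -0.33. The second had 98.8 in CD4CD8aa IEL and 108 in CD4 IEL, a difference of -0.13, and the third 2.46 in CD4CD8aa IEL and 2.60 in CD4 IEL, a difference of -0.08. All 3 were slightly lower in CD4CD8aa IEL, whereas Tcrg-V1 was higher, and the ratio of Tcrg-V1 to the brightest Tcrg-V4 probe set was 3.21 times higher in CD4CD8aa IEL. In the RefSeq order of the gamma locus on chromosome 13, Trgv4 lies in the group of segments beside the constant gene Trgc1, and Trgv1 lies beside Trgc4 at the other end. A further gamma probe set names both Tcrg-V2 and Tcrg-V3 and is therefore no member. It had 324 in CD4CD8aa IEL and 278 in CD4 IEL, a difference of 0.22.

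The ending of a probe set's name tells what its probes can bind. The Tcrg-V1 probe set and 2 of the 3 for Tcrg-V4 end in _a_at, which Affymetrix uses for probes shared by transcripts of 1 gene, and the other ends in _x_at, used where probes may bind other sequences as well. Gamma genes are near-identical copies in part, and the sequences of the probes were not analysed here. Whether each probe set reports the segment it is named for, or a shared constant region, was not tested, and a signal of these probe sets does not show a productive gamma chain.

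Probe sets named for TCR genes other than gamma give the setting. In all, 25 probe sets carry a TCR name, 8 for alpha, 12 for beta and 5 for gamma, and 23 were detected, with a median difference of 0.15. Of these, 2 were past 2-fold upwards in CD4CD8aa IEL and 6 downwards, against 6.73% and 6.98% among all 30244 detected probe sets with 1 gene symbol. The 13 that reached 16 times the array median on both arrays had a median difference of 0.24, with 11 above 0. Of these 13, 2 were past 2-fold upwards and 0 downwards. Among the 3487 genes this bright, each at 1 probe set, the shares were 1.15% upwards and 0.774% downwards. Several of the 13 carry the same gene name, so they are not separate genes.

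The brightest TCR beta probe set, named Tcrb-J, had 485 in CD4CD8aa IEL and 405 in CD4 IEL, a difference of 0.26, and the brightest alpha probe set, shared by Tcra and another name, had 225 in CD4CD8aa IEL and 172 in CD4 IEL, a difference of 0.39. Apart from Tcrg-V1, the bright probe set at least 2-fold apart was another one named Tcrb-J, with 41.8 in CD4CD8aa IEL and 20.0 in CD4 IEL, 2.08-fold higher. The bright alpha and beta probe sets thus lay within 2-fold with that 1 exception.

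Among the dimmer TCR probe sets, the differences past 2-fold were downwards. Of the 10 that were below 16 times the median on an array, 6 were past 2-fold downwards in CD4CD8aa IEL and 0 upwards. The share past 2-fold among all probe sets this dim was not measured, and the shares given above cover all signals. Trav12d-1 and 1 Tcrb-J probe set were only just past the limit, at least 2.01-fold lower with CD4CD8aa IEL below the floor. A Tcra probe set had 0.393 in CD4CD8aa IEL, below the floor, and 4.38 in CD4 IEL, at least 11.0-fold lower, and a Tcrb-J probe set had 0.418 in CD4CD8aa IEL and 2.35 in CD4 IEL, 5.61-fold lower. Tcrb-V8.2, a named variable segment, had 2.59 in CD4CD8aa IEL and 7.22 in CD4 IEL, 2.78-fold lower. T cells that use a given segment in different shares and cells that hold different amounts of its RNA cannot be told apart in these bulk samples, which holds for every gene here.

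**Figure D3:**
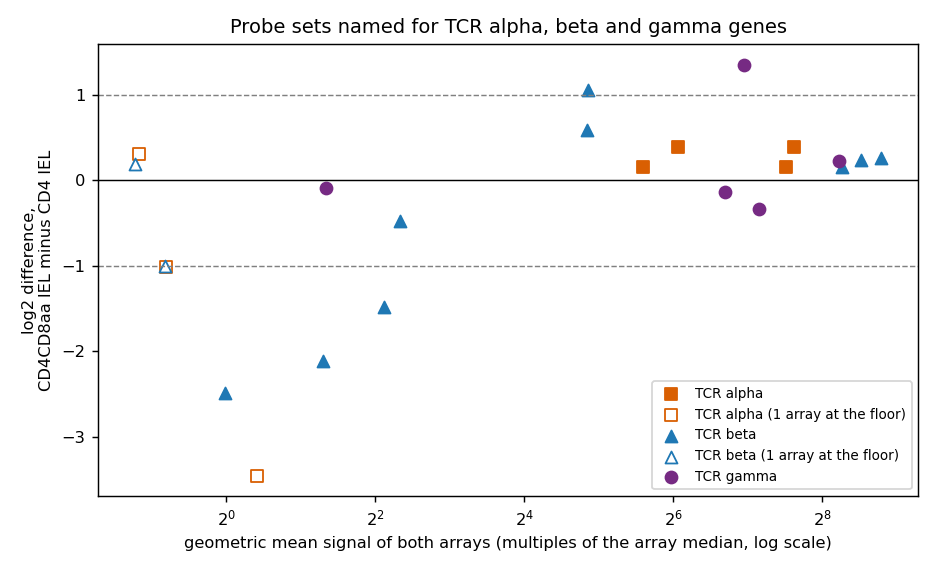
Log2 difference (CD4CD8aa IEL minus CD4 IEL) of the 23 detected probe sets named for TCR alpha (squares), beta (triangles) and gamma (circles) genes, against the geometric mean signal of both arrays (log scale), with open symbols where 1 array lay at the floor and dashed lines at 2-fold. Among the 13 bright probe sets those of Tcrg-V1 and one named Tcrb-J lie above the 2-fold line, and the 6 on or below the lower line are all dim.

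A list of genes that mark gamma delta T cells was set beside Tcrg-V1. The list had 11 names, of which 6 had a probe set. Those without one were Tcrd-V1, Trdc, Trdv4, Tcrg-C and Trgc1, so the list measured no TCR delta gene and no gamma constant gene. All 6 detected genes had differences below 0, with a median of -1.81. Of the 6, 3 were at least 2-fold lower in CD4CD8aa IEL, against 6.28% of all detected genes. The signals of the 6 genes summed to 14.5 in CD4CD8aa IEL and 102 in CD4 IEL. Most of that sum was Maf, a transcription factor also made by Th17 and other helper T cells, with 11.6 in CD4CD8aa IEL and 84.4 in CD4 IEL. The median was -0.74 over 5 genes when 5830411N06Rik, which entered through the RefSeq synonym Scart2 after values had been seen, was left out. The scavenger receptor genes that mark IL-17-producing gamma delta cells were 5830411N06Rik, at 0.129 in CD4CD8aa IEL and 8.38 in CD4 IEL, at least 20.9-fold lower, and Cd163l1, at 0.649 in CD4CD8aa IEL and 4.81 in CD4 IEL, 7.42-fold lower. Sox13, a transcription factor of gamma delta thymocytes, had 0.211 in CD4CD8aa IEL and 0.616 in CD4 IEL. Of the 6 marker genes, 3 (Sox13, 5830411N06Rik and Etv5) were below the floor on the CD4CD8aa array. The differences of Sox13 (-0.62) and Etv5 (-0.74) were smaller than the same-gene SD of 0.81 at their signal. That of Blk (-0.553) was just within the SD of 0.554 at its signal. The recipients could make no T cells of their own, and the part of gamma delta T cells in the Tcrg-V1 signal was not tested.

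Of the adaptors, none reached 2-fold. Hcst was bright, with 53.6 in CD4CD8aa IEL and 66.8 in CD4 IEL, a log2 difference of -0.32 that lies within the same-gene SD of 0.41. Tyrobp was dim, with 1.77 in CD4CD8aa IEL and 2.36 in CD4 IEL, a difference of -0.42 against an SD of 0.55. Tyrobp and Hcst are neighbours on chromosome 7, and their ratio moved by 0.10 on the log2 scale. Fcer1g had 1.27 in CD4CD8aa IEL and 0.672 in CD4 IEL, 1.89-fold higher and a difference of 0.92, which is 1.14 times the same-gene SD (0.81 here). Fcer1g lay near the array median on both arrays, as intensities of 103 in CD4CD8aa IEL and 55.4 in CD4 IEL before the division, and its difference was 0.67 with the floor 2 times as high. Each adaptor has 1 probe set.

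Receptors listed as partners of these adaptors are described next. The lists also hold Fcgr2b and Treml1, which have signalling tails of their own. The Fcer1g list had 14 genes, 12 of them detected and all dim, with a median difference of -0.20, 1 past 2-fold upwards in CD4CD8aa IEL, 1 downwards and 10 between. Fcgr4, an activating Fc receptor of myeloid cells, had 1.29 in CD4CD8aa IEL and 0.442 in CD4 IEL, 2.93-fold higher, and Oscar, a collagen receptor of myeloid cells and osteoclasts, had 0.731 in CD4CD8aa IEL and 1.82 in CD4 IEL, 2.49-fold lower. The brightest, Fcgr2b, an inhibitory Fc receptor with a motif of its own, had 4.30 in CD4CD8aa IEL and 4.29 in CD4 IEL. No receptor on this list therefore stood out as a bright partner of Fcer1g.

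The list for Tyrobp and Hcst held the partner with the larger contrast. Klrk1, which encodes NKG2D and pairs with Hcst, was below the floor at 0.201 in CD4CD8aa IEL and at 1.63 in CD4 IEL, at least 4.07-fold lower, while Hcst itself was bright on both arrays. Of 18 names, 16 had a probe set and 11 genes were detected, with a median of -0.23, 3 past 2-fold upwards in CD4CD8aa IEL, 2 downwards and 6 between. Cd200r4, an activating receptor of the CD200 receptor family that couples to Tyrobp, was the brightest, with 81.4 in CD4CD8aa IEL and 33.8 in CD4 IEL, 2.41-fold higher. Klrd1, which encodes CD94, had 63.3 in CD4CD8aa IEL and 22.2 in CD4 IEL, 2.86-fold higher. CD94 reaches Tyrobp only through an activating partner such as NKG2C, and Klrc2, the gene for NKG2C, had 0.0974 in CD4CD8aa IEL and 0.0848 in CD4 IEL, below the floor on both arrays. Trem1, a myeloid receptor, was at least 3.49-fold lower (0.173 in CD4CD8aa IEL and 1.40 in CD4 IEL), and Treml1, a platelet receptor with an inhibitory tail, at least 3.09-fold higher (1.24 in CD4CD8aa IEL and 0.244 in CD4 IEL).

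**Figure D4:**
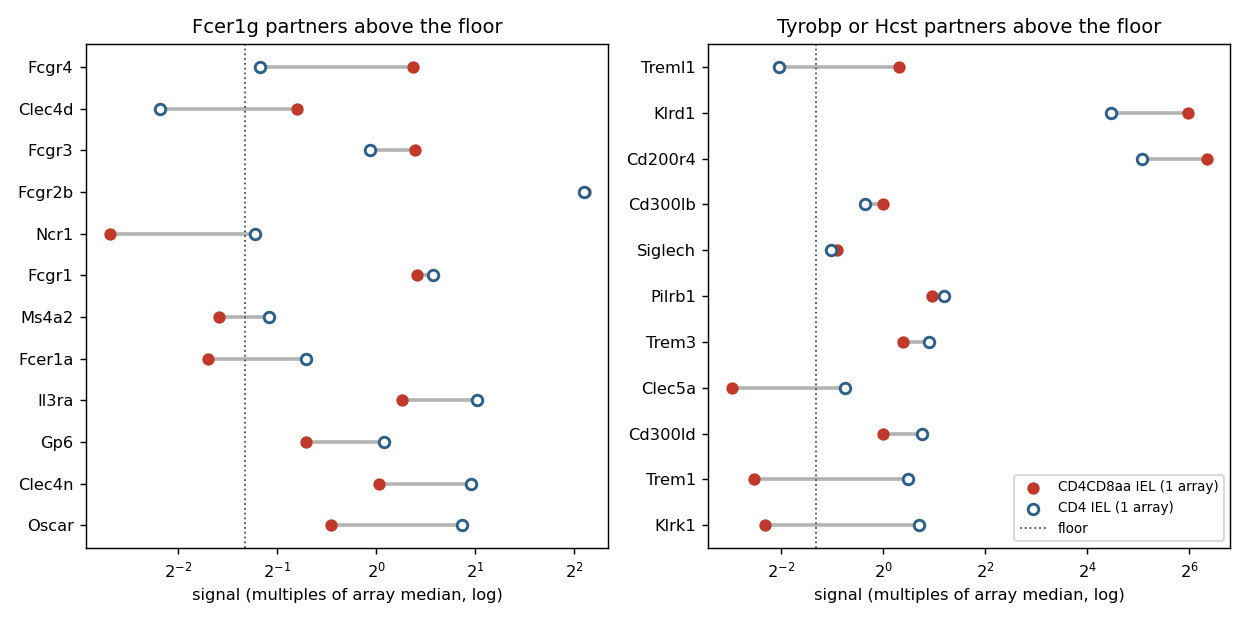
Signals (multiples of the array median, log scale) of the detected genes on the lists of receptors for Fcer1g (left, 12 genes) and for Tyrobp or Hcst (right, 11 genes), on the CD4CD8aa IEL array (filled red) and the CD4 IEL array (open blue), ordered by difference; the dotted line is the floor. Klrd1 and Cd200r4 are the partners far above the floor, both higher in CD4CD8aa IEL, and Klrk1 lies below the floor there.

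The kinases, adaptors and related genes listed as acting near the CD3 chains lay within 2-fold with 1 exception. Some bright ones still differed by more than the same-gene SD of 0.35 at their signal. Among them, Cd6 was higher in CD4CD8aa IEL (difference 0.77), and Sla (-0.56) and Trat1 (-0.54) were lower. Of the 22 names on that list, 21 had a probe set and all 21 were detected, with 0 past 2-fold upwards in CD4CD8aa IEL, 1 downwards and 20 between, and a median difference of -0.12. Lck, which phosphorylates ITAMs, had 347 in CD4CD8aa IEL and 313 in CD4 IEL, and Fyn, a kinase of the same family, 141 in CD4CD8aa IEL and 107 in CD4 IEL, differences of 0.15 and 0.40. Zap70, the kinase that binds phosphorylated CD3 and zeta ITAMs, had 62.9 in CD4CD8aa IEL and 53.8 in CD4 IEL, a difference of 0.23. Its relative Syk, named Sykb in the files and used mainly in B and myeloid cells, had 1.80 in CD4CD8aa IEL and 2.22 in CD4 IEL, a difference of -0.30. The brightest gene of the list was Ptprc, the CD45 phosphatase that activates Lck, with 356 in CD4CD8aa IEL and 387 in CD4 IEL. The 1 gene past 2-fold was Nck2, an adaptor that binds the tail of CD3 epsilon, at 0.771 in CD4CD8aa IEL and 1.57 in CD4 IEL, 2.04-fold lower at signals near the array median.

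Other cells could bring Fcer1g and Tyrobp, which myeloid, mast and NK cells make, into a sort. Of 21 myeloid and mast cell markers, 19 were detected, with a median difference of -0.10, 2 past 2-fold upwards in CD4CD8aa IEL, 2 downwards and 15 between, and their signals summed to 80.6 in CD4CD8aa IEL and 85.6 in CD4 IEL. Cst3, a protease inhibitor of many cell types, was the brightest, at 34.8 in CD4CD8aa IEL and 39.3 in CD4 IEL. Lyz1 had 11.3 in CD4CD8aa IEL and 15.1 in CD4 IEL, while the related gene Lyz2 was dimmer, at 2.38 in CD4CD8aa IEL and 3.01 in CD4 IEL. Cst3 and Lyz1 made up a large part of the sums, which therefore do not measure the content of myeloid cells. The macrophage receptor gene Csf1r, picked out after its values were seen, had 10.2 in CD4CD8aa IEL and 9.79 in CD4 IEL. Itgax, which encodes CD11c and is also made by activated gut T cells, was 3.02-fold higher (5.33 in CD4CD8aa IEL and 1.76 in CD4 IEL) and S100a8, a neutrophil protein, at least 2.06-fold higher (0.825 in CD4CD8aa IEL and 0.0933 in CD4 IEL). Msr1 was at least 3.15-fold lower (0.400 in CD4CD8aa IEL and 1.26 in CD4 IEL) and Cd14 2.98-fold lower (0.637 in CD4CD8aa IEL and 1.90 in CD4 IEL), both macrophage receptors. Itgam, which encodes CD11b, and the mast cell protease gene Mcpt2 were below the floor on both arrays. The part of such cells in the Fcer1g and Tyrobp signals was not tested.

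Markers of NK and innate lymphoid cells were mostly lower in CD4CD8aa IEL, with 11 of 12 genes detected, a median of -0.86, 0 past 2-fold upwards, 4 downwards and 7 between, and sums of 250.3 in CD4CD8aa IEL and 359 in CD4 IEL. T cells also make several of them, among them the brightest, Il7r, the IL-7 receptor, with 226 in CD4CD8aa IEL and 307 in CD4 IEL. Eomes, a T-box transcription factor, had 0.425 in CD4CD8aa IEL and 2.17 in CD4 IEL, 5.11-fold lower. Ncr1, which encodes the NK receptor NKp46 that signals through Fcer1g and CD3 zeta, had 0.155 in CD4CD8aa IEL and 0.429 in CD4 IEL. B cell markers (8 of 9 detected, median 0.07) summed to 9.27 in CD4CD8aa IEL and 8.31 in CD4 IEL, with 0 at least 2-fold higher and Cd79b, the B cell receptor chain with an ITAM, 3.38-fold lower (0.420 in CD4CD8aa IEL and 1.42 in CD4 IEL). The brightest of them, Igh-6, the IgM heavy chain gene, had 3.95 in CD4CD8aa IEL and 2.09 in CD4 IEL. Epithelial markers (16 of 16 detected, median -0.15) summed to 53.8 in CD4CD8aa IEL and 62.6 in CD4 IEL, with 1 past 2-fold upwards (Vil1, 2.63-fold) and 4 downwards (led by Krt18, 2.80-fold).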

How the data were processed

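RNA of 2 sorted populations was measured, each on 1 Affymetrix Mouse Genome 430 2.0 array, per the series' design text. The submitters' processing notes name GCOS 1.2, and the design text names GeneSpring GX10 for the analysis. The sources used here do not state the background correction or how probes were summarised. For 45101 probe sets the authors deposited raw and normalized intensities (names per the file headers). The normalized intensities equal the raw ones divided by the array median to within 4.98e-08 for every probe set. The trimmed mean of the raw intensities was 499.823 in CD4CD8aa IEL and 499.824 in CD4 IEL. The arrays were thus on a like scale before that division. The log2 fold and the linear fold that the authors deposited run CD4 over CD4CD8aa, per the file headers, and so have the opposite sign to the differences here. The rounded table had been planned as the main values. After values had been seen, the full-precision intensities took its place, because rounding left ties at exactly 2-fold, and the table rounded to 2 decimals became the alternative.

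The floor is the higher of the arrays' 30th percentiles. The rows used name 1 gene (37782), and 1399 with several symbols, 5821 with none, 35 with a symbol turned into a date and 64 controls were left out, except that TCR names were also read from rows with several. A gene is represented by its brightest probe set (mean of the log2 signals, taken before the floor). Choosing it after the floor was run first and was replaced once its values had been seen. The same-gene SD comes from 20185 probe sets of 7380 genes and covers neither animals nor RNA preparations. Named were all 9 genes, from each list the 2 largest differences of at least 2-fold in each direction and the brightest gene, and Lck, Fyn, Zap70, Syk, Klrk1, Cd4, Cd8a and Cd8b1. One gene that this rule names is not reported here. A few others are named for context (Klrc2, Ncr1, Sox13, Etv5, Blk, Itgam, Mcpt2, Csf1r, Lyz1, Lyz2, Cd6, Sla, Trat1, Trav12d-1 and Tcrb-V8.2), chosen after their values were seen. The 9 genes and the lists were chosen with earlier results of these data known. Lyz1 entered the myeloid list through the older name Lyz. Lists were matched by symbol or RefSeq synonym (111 symbols from 122 names), and the synonyms were added after values had been seen. Of the 9 symbols, 7 were current in RefSeq (GRCm38.p6) and 2 older. No test was possible with 1 array per group, and the number of arrays limits the precision. Calculations used Python 3.11.15, numpy 2.4.6 and pandas 2.3.3 and were tested on simulated data.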

Additional observations from a re-analysis of the deposited data

How the results depend on the processing

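No paired analysis was possible because each group has 1 array and no test. Over 10 other ways of processing (4 floors, 3 scalings, 2 probe set choices and rounded values), 0 of the 9 genes changed by as much as its same-gene SD. For bright genes with 1 probe set, such as Cd3e, floors and probe set choices could not change the value. Raw signals and centring shift all bright genes by the same amount. The count is therefore little test of those genes. The ranges were 0.97 to 1.03 for Cd3e, 1.32 to 1.38 for Tcrg-V1, 0.67 to 0.93 for Fcer1g, -0.45 to -0.24 for Tyrobp and -0.37 to -0.13 for Tcrg-V4. The count of these genes at least 2-fold higher was 1 in place of 2 with raw signals, with centring on the median difference (Cd3e was just under 2-fold in both) and with only probe sets without a suffix, which leaves out both gamma genes. The count at least 2-fold lower was 0 throughout. Fcer1g was not detected with the floor at 2 or 4 times the array median, nor Tyrobp at 4 times. The counts over all genes followed the floor. At least 2-fold higher and lower were 1998 and 1960 without the floor, 446 and 483 after doubling it to 2 times its value, 204 and 219 with it at 2 times the array median, 141 and 140 at 4 times, and 40 and 27 among genes at 16 times or more, a limit added after seeing the data, against 1156 and 1092.

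Choosing the brightest probe set after the floor, an alternative added after seeing the data, left the 9 genes' differences as they were and gave 1195 higher and 1126 lower of 17439 detected genes. Matching the lists by symbol alone, also added then, took the gamma delta markers to -0.74 and moved no other list median by as much as its expected error (same-gene SD over the square root of the number of genes, a measure chosen here for want of replicates).

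Other list medians moved under some alternatives, with fewer genes detected in some cases and not in others, and the cause was not tested. The kinase list went to -0.024 with the floor at 2 times the median, 0.079 at 4 times, -0.013 with the median over probe sets and 0.018 without suffixed probe sets. The Fcer1g partners went to -0.44 with the median over probe sets and -0.63 with no floor. The Tyrobp and Hcst partners went to 1.27 (3 genes left) and 1.39 (2 genes left) with floors at 2 and 4 times the median, Klrd1 and Cd200r4 among them. The gamma delta markers went to -2.73 with the floor 2 times as high, -1.07 at 4 times the median, -2.71 with no floor and -2.55 without suffixed probe sets. The B cell markers went to -0.24 with the floor 2 times as high and 0.37 at 2 times the median, the epithelial markers to 0.077 at 2 and 4 times, and the myeloid markers to 0.060 at 4 times and 0.16 without suffixed probe sets. Fcer1g, with a mean log2 signal of -0.11, lies just under the array median, in the range with the widest same-gene SD (0.81). From 1 to 2 times the median that SD was 0.67.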
